A study of Homo sapiens with 11 samples.

Results

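Genes that hold epithelial cells together were followed through RNA-Seq of HCC78 cells expressing wild-type (WT) or S34F mutant U2AF1. They are the cadherins CDH1, CDH2 and CDH3, the p120 catenin gene CTNND1, the tight junction genes OCLN, TJP1, CLDN1, CLDN4 and CLDN7, and the adhesion gene EPCAM. These 10 of the 57773 genes in the deposited table were taken by symbol from a fixed list, and 9 of them averaged 1 FPKM or more over the 9 libraries (FPKM counts sequenced fragments per unit of transcript length and of library size). No member differed between S34F dox+ and WT dox+ at an adjusted p under 0.05. The lowest unadjusted p-values between these 2 groups were those of the P-cadherin gene CDH3 and the occludin gene OCLN, both at higher levels in S34F dox+. Without doxycycline, the WT line had lower levels of the 3 claudins and OCLN than the parental line, although none passed that adjusted p. The sources differ on whether the parental line was grown with doxycycline. None of the 52 splicing events listed for the members passed the thresholds for a difference.

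HCC78 is a lung adenocarcinoma line that itself carries the U2AF1 S34F allele and an SLC34A2-ROS1 fusion, and all groups share these. U2AF1 is the subunit of the U2AF splicing factor that reads the end of an intron. The WT and S34F lines were made by lentiviral transduction of HCC78 with U2AF1 under a doxycycline-inducible promoter, tagged with FLAG and HA, as stable subclones, and the number of subclones behind each line is not given in the sources used here. The groups were WT dox+ (2 libraries), S34F dox+ (2), WT dox- (2), S34F dox- (1 library, replicate 2) and the parental line (2), which the sample labels give as grown without doxycycline and other material of the study as grown with it. No line with an empty vector was among them, and the sources differ on doxycycline in the parental line. Transduction, subcloning, leaky expression and doxycycline therefore cannot be told apart in a comparison with the parental line.

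FPKM of U2AF1 was 278 and 299 in WT dox+, 164 and 223 in S34F dox+, and between 103 and 115 in the other 5 libraries. These are the dox- and parental ones, called uninduced below because they hold no induced construct. The labels put S34F at 12% and 14% of U2AF1 transcripts in WT dox+, at 62% and 65% in S34F dox+, and at 28% to 33% in the others. The table holds no counts, so sequencing depth is not known and counting error cannot be set beside a value. Between 13661 and 14688 genes reached 1 FPKM in the uninduced libraries, 15736 and 20896 in S34F dox+ and 16053 and 17716 in WT dox+. Every induced library was thus above every uninduced one, and S34F dox+ replicate 2 stood apart; the part of this shift in the results on induction was not tested. Of 10 lung adenocarcinoma and epithelial markers, 9 averaged 1 FPKM or more and their summed FPKM, most of it from keratins, was 8439 to 11479; the surfactant gene SFTPB lay between 0.25 and 2.05. The summed markers of fibroblasts, endothelium, blood and squamous cells did not exceed 13.7 FPKM in any library.

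Classical cadherins such as E-cadherin (CDH1), P-cadherin (CDH3) and N-cadherin (CDH2) bind their own kind on neighbouring cells through calcium-dependent repeats and are tied to actin by catenins. p120 catenin, the product of CTNND1, holds cadherins at the membrane by slowing their endocytosis. Above the adherens junction, claudins and occludin form the seal of the tight junction, and ZO-1, encoded by TJP1, anchors it to the cytoskeleton. EpCAM is a homophilic adhesion molecule of carcinoma cells that also associates with claudin-7. Loss of E-cadherin with a gain of N-cadherin is a classic mark of epithelial to mesenchymal transition, and repressors of the SNAI and ZEB families bring it about by binding E-boxes of the letters CAGGTG in promoters of junction genes.

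For 6 members (CDH2, CLDN1, CLDN4, CLDN7, OCLN and TJP1), 12 promoter windows of the 250 bases before a RefSeq start (GRCh38.p14) were searched for this E-box, as CAGGTG or its reverse complement CACCTG. It was found in 4 of the 12 windows, against 17.5% of the 35116 windows of all genes. The window of CLDN7 with 4 matches is shown because 0.122% of all windows held as many, and the first window of OCLN because OCLN had the second lowest p of the members in the comparison of S34F dox+ with WT dox+. Both are printed 5′ to 3′ on the strand of the gene, with the E-box in capitals. The CLDN7 window lies at chr17:7262479-7262728 on the minus strand and the OCLN window at chr5:69492297-69492546 on the plus strand. A match of these letters is a description and not a measured binding site.
CLDN7: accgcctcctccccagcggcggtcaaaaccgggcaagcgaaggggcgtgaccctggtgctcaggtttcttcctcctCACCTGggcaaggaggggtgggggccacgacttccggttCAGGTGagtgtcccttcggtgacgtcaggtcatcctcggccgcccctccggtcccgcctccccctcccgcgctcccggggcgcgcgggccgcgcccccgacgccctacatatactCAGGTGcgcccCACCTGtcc
OCLN: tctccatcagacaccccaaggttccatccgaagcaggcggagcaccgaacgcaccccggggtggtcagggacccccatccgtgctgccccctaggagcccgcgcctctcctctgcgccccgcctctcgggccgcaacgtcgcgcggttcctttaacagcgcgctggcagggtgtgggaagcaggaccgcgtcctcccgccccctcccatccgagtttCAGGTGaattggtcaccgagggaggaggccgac

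The order of the members' levels was fixed at its ends and varied in the middle. FPKM is scaled by transcript length, so levels can be set side by side. EPCAM was highest, at 503 ± 41.1 FPKM (SD over 9 libraries), and OCLN followed at 225 ± 30.5, above the next gene in 9 of 9 libraries. TJP1, CLDN7 and CTNND1 were close, at 145, 134 and 127 FPKM on average, with overlapping ranges and an order that differed between groups, CLDN7 being above TJP1 in the parental line and below CTNND1 in WT dox+. CDH3 lay at 98.2 ± 14.2 and CDH1 at 89.8 ± 11.3 FPKM, with CDH3 the higher of the pair in 7 of 9 libraries. CLDN4 (32.6 FPKM) and CLDN1 (13.8 FPKM) were lower, each without overlap with the gene above it. CDH2 was between 0.02 and 0.62 FPKM, so that it was not tested, and its highest value came from S34F dox+ replicate 2. These libraries thus held E-cadherin and P-cadherin transcripts at nearly equal levels and next to no N-cadherin transcript.

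**Figure D1:**
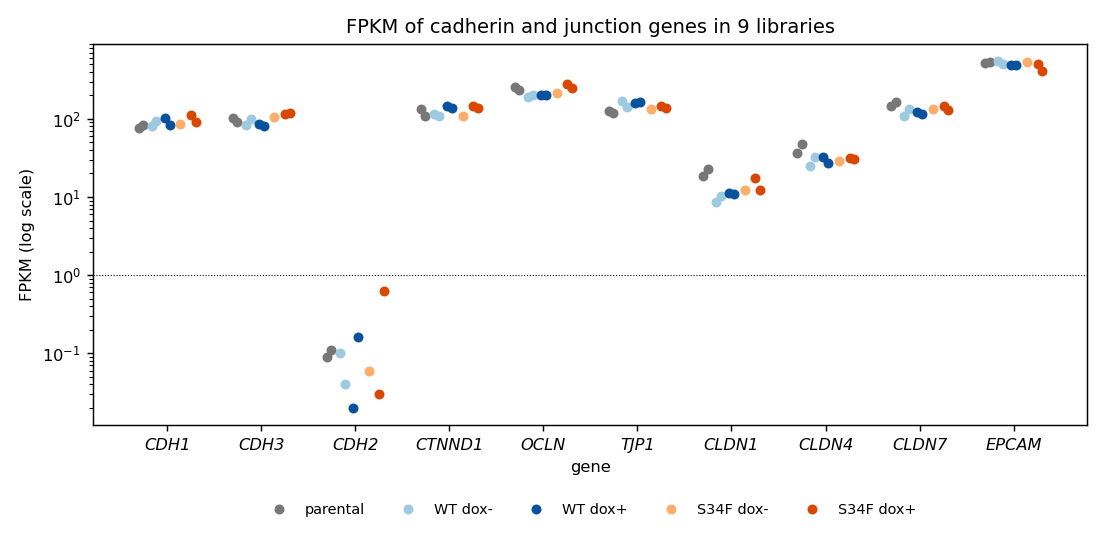
FPKM of the 10 genes (x axis) in each of the 9 libraries on a log scale, with points coloured by group and a dotted line at 1 FPKM. CDH2 lies below 1 FPKM in every library, EPCAM is highest, and CLDN1 spans 8.51 to 22.7 FPKM.

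The comparison of S34F dox+ with WT dox+ sets junction genes in the induced mutant line beside those in the induced wild-type line. These groups also differed in total U2AF1, at 164 and 223 FPKM against 278 and 299, and came from separately transduced lines. Mutation, amount of U2AF1 and subclone therefore cannot be told apart in it. Over the 9 tested members, 0 passed an adjusted p of 0.05 in limma's test, against 0.0527% of the 15179 genes tested. At an unadjusted p under 0.05 there were 2 members, CDH3 and OCLN, against 6.78% of all genes. The groups did not overlap for 4 members that were higher in S34F dox+ (CDH3, OCLN, CLDN1 and CLDN7), against 20.5% of all genes, and for 1 that was lower (TJP1), against 15.3%. The median log2 fold change of the members was 0.13, beside 0.03 over all genes. With 2 libraries a group these tests see only large or very even differences, and nothing in the sources used here says whether replicates came from separate cultures, so the p-values measure the spread between libraries.

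E-cadherin transcript did not separate the groups. CDH1 was 111 and 92.2 FPKM in S34F dox+ and 102 and 84.4 in WT dox+, and the libraries interleaved. The log2 fold change was 0.13, with a 95% interval from -0.22 to 0.47 (adjusted p = 0.911, limma). In bulk RNA such as this, fewer cells with a transcript and less of it per cell cannot be told apart. The 5 uninduced libraries lay from 75.5 to 93.6 FPKM, and both parental libraries (75.5 and 82.3) were below all 4 dox+ libraries.

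P-cadherin transcript had the largest log2 fold change of the members. CDH3 was 116 and 120.2 FPKM in S34F dox+ against 85.0 and 81.4 in WT dox+, so both mutant libraries were above both wild-type libraries. Its log2 fold change was 0.50 ± 0.12 (SE), with an unadjusted p of 0.00432 and an adjusted p of 0.531 (limma). It lay between 0.47 and 0.53 when each library of these groups was left out. With TPM, another length-scaled unit, in place of FPKM it was 0.38. In S34F dox- CDH3 was 105 FPKM, in WT dox- 82.9 and 99.6, and in the parental line 103 and 90.5. The WT dox+ pair was thus the lowest or near the lowest of the groups, and the S34F dox+ pair the highest. Within a library, where scaling cancels, CDH3 was 1.04 and 1.30 times CDH1 in S34F dox+, 0.835 and 0.965 times in WT dox+, 1.03 and 1.06 times in WT dox-, 1.22 times in S34F dox- and 1.37 and 1.10 times in the parental line.

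p120 catenin transcript overlapped between the induced lines. CTNND1 was 147 and 136 FPKM in S34F dox+ and 147 and 139 in WT dox+, giving a log2 fold change of -0.01 with a 95% interval from -0.29 to 0.27. Both induced groups were above the uninduced lines, where CTNND1 was 109 FPKM in S34F dox- and 116 and 109.5 in WT dox-.

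In the tight junction, OCLN was 277 and 248 FPKM in S34F dox+ and 201 and 204 in WT dox+, without overlap. The log2 fold change was 0.37 ± 0.11 (SE), with an unadjusted p of 0.00938 and an adjusted p of 0.555 (limma), and 0.29 to 0.45 with each library left out. In TPM it was 0.25. OCLN is uncertain in 1 respect: part of the gene is duplicated nearby on chromosome 5, 6 of its 7 splicing events were also listed under the pseudogene GUSBP3, and GUSBP3 itself was at 1.82 to 9.09 FPKM. TJP1 went the other way, with 148 and 138 FPKM in S34F dox+ and 161 and 164 in WT dox+, giving a log2 fold change of -0.19 (adjusted p = 0.804, limma). The ratio of OCLN to TJP1 within a library was 1.87 and 1.80 in S34F dox+ and 1.25 and 1.24 in WT dox+. It was 1.56 in S34F dox-, 1.09 and 1.43 in WT dox-, and 2.05 and 1.93 in the parental line, so the S34F line lay between the WT line and the parental line. These ratios were chosen after the values were seen and carry no test.

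The claudins spanned small differences. CLDN1 was 17.4 and 12.4 FPKM in S34F dox+ and 11.1 and 10.8 in WT dox+, giving a log2 fold change of 0.39 ± 0.19 (SE, adjusted p = 0.759, limma). That value rested on the S34F dox+ libraries, as it was 0.16 without replicate 1 and 0.62 without replicate 2. CLDN7 was 148 and 128 FPKM against 123 and 114, giving a log2 fold change of 0.22 (adjusted p = 0.810, limma), which was 0.11 without S34F dox+ replicate 1. CLDN4 was 31.5 and 30.8 FPKM against 32.7 and 27.3, with the groups overlapping. EPCAM was 499 and 407 FPKM in S34F dox+ and 492 and 489.6 in WT dox+, and the lower value came from S34F dox+ replicate 2. With TPM in place of FPKM, which moved the median log2 fold change of all genes from 0.03 to -0.07, an unadjusted p under 0.05 was found for 2 members with higher and 2 with lower values, in place of 2 and 0. Over all genes the split at that p was 609 higher and 420 lower in FPKM, 296 and 1016 in TPM, and 559 and 616 after quantile normalization.

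**Figure D2:**
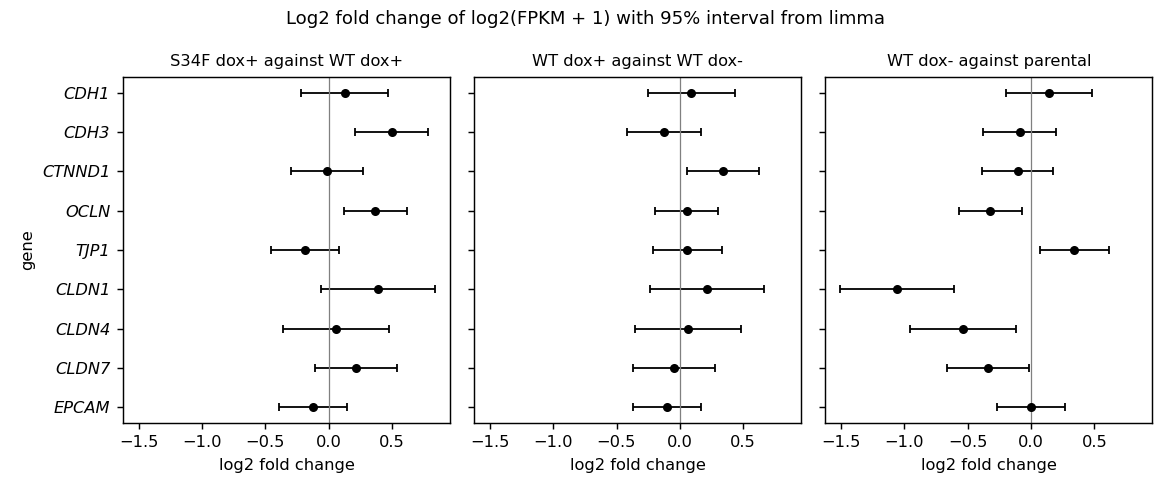
Log2 fold change on the log2(FPKM + 1) scale (x axis) of the 9 tested genes in 3 comparisons, with 95% intervals from limma. In S34F dox+ against WT dox+ the intervals of CDH3 and OCLN lie above 0, and in WT dox- against parental those of CLDN1, CLDN4, CLDN7 and OCLN lie below 0 and that of TJP1 above; none passed adjustment over all genes.

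Whether such differences came with induction can be read from the uninduced S34F library, although it is alone. CLDN1 was 12.4 FPKM there and 8.51 and 10.2 in WT dox-, a log2 difference of 0.38, close to the 0.39 between the induced lines. TJP1 was 135 FPKM there and 172 and 142 in WT dox-, a log2 difference of -0.20 beside -0.19 with doxycycline. For CDH3 the log2 difference between the lines was 0.21 without and 0.50 with doxycycline, and for OCLN 0.12 and 0.37. A contrast of the responses to doxycycline, S34F line minus WT line, tests this change. It was 0.29 for CDH3, with a 95% interval from -0.17 to 0.75, and 0.25 for OCLN, from -0.14 to 0.65, and no member passed (0 of 9 by limma at an adjusted or an unadjusted p of 0.05, against 0.0264% and 3.42% of all genes). The spread of S34F dox- in this test is assumed to be like that of the other groups. TPM scaling moved the median of all genes in this comparison by more than 0.1, from 0.03 to -0.11. It turned the sign of 6 members, whose values in FPKM were 0.01 to 0.14.

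Induction of wild-type U2AF1 serves as the background for the mutant. In WT dox+ against WT dox- 0 of 9 members passed by limma at an adjusted p of 0.05, against 0.0132% of all genes, and 1 did at an unadjusted p of 0.05, against 14.4%. That member was CTNND1, at 147 and 139 FPKM in WT dox+ and 116 and 109.5 in WT dox-, giving a log2 fold change of 0.34 ± 0.12 (SE, adjusted p = 0.280, limma). The parental line, at 134 and 109.9 FPKM, overlapped WT dox-. CLDN1 was also higher without overlap, at 11.1 and 10.8 FPKM against 8.51 and 10.2, and EPCAM lower, at 492 and 489.6 against 545 and 510.5. Groups did not overlap for 49.6% of all genes in this comparison, so 3 of 9 members is a share below the background.

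Of the tight junction genes, CLDN1, CLDN4 and CLDN7 were lower in WT dox- than in the parental line without overlap. None of them passed the threshold on the adjusted p (limma). CLDN1, a main sealing claudin, was 18.4 and 22.7 FPKM in the parental line and 8.51 and 10.2 in WT dox-. It was lower in each of the 7 libraries of transduced cells than in either parental library. Its log2 fold change in WT dox- against parental was -1.06 ± 0.19 (SE), with an unadjusted p of 0.000703 and an adjusted p of 0.131 (limma), and -0.92 to -1.20 with each library left out. CLDN4 was 36.6 and 48.1 FPKM in the parental line, 25.3 and 32.3 in WT dox-, and below the parental values in all 7 transduced libraries, with a log2 fold change of -0.54 ± 0.18 (SE, adjusted p = 0.298, limma) that was -0.35 without parental replicate 2. CLDN7 was 145 and 165 FPKM in the parental line and 110.2 and 135 in WT dox-, giving a log2 fold change of -0.34 that was -0.19 without WT dox- replicate 1. Some of the 10 lung adenocarcinoma and epithelial markers were also lower in WT dox-, SLC34A2 at 58.1 and 70.5 FPKM against 115 and 166 in the parental line. ROS1 was 14.2 and 15.9 against 26.1 and 37.8, but HCC78 carries an SLC34A2-ROS1 fusion, so these genes are not separate observations. NAPSA was 2.79 and 4.02 against 7.39 and 9.97, and SFTPB 0.40 and 0.45 against 0.89 and 2.05. KRT7 was higher, at 4164 and 4196 against 3371 and 2873, and NKX2-1, KRT8, KRT18, KRT19 and EPCAM overlapped. The part of these differences in the claudin values was not tested.

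OCLN followed the claudins and TJP1 did not. OCLN was 259 and 232 FPKM in the parental line and 188 and 203 in WT dox-, giving a log2 fold change of -0.32 (adjusted p = 0.294, limma). TJP1 was 126 and 119.8 FPKM in the parental line and 172 and 142 in WT dox-, giving a log2 fold change of 0.34 (adjusted p = 0.304, limma) that was 0.21 without WT dox- replicate 1. It was above both parental values in all 7 transduced libraries. In all, 4 members were lower without overlap, against 22.4% of all genes, and 1 higher, against 21.6%. At an unadjusted p under 0.05 the counts were 4 lower, against 6.54%, and 1 higher, against 5.79%, and at an adjusted p of 0.05 they were 0 by limma, against 0.0988% for both directions. The unadjusted counts depended on the processing. In TPM they were 2 lower and 1 higher, beside 598 and 1499 of 14529 genes, and the median of all genes moved from 0 to 0.09. With a replicate block they were 3 lower and 1 higher. CDH1 (log2 fold change 0.14), CDH3 (-0.09), CTNND1 (-0.11) and EPCAM (-0.00106) overlapped between the groups. This comparison shares WT dox- with the comparison of induction.

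**Figure D3:**
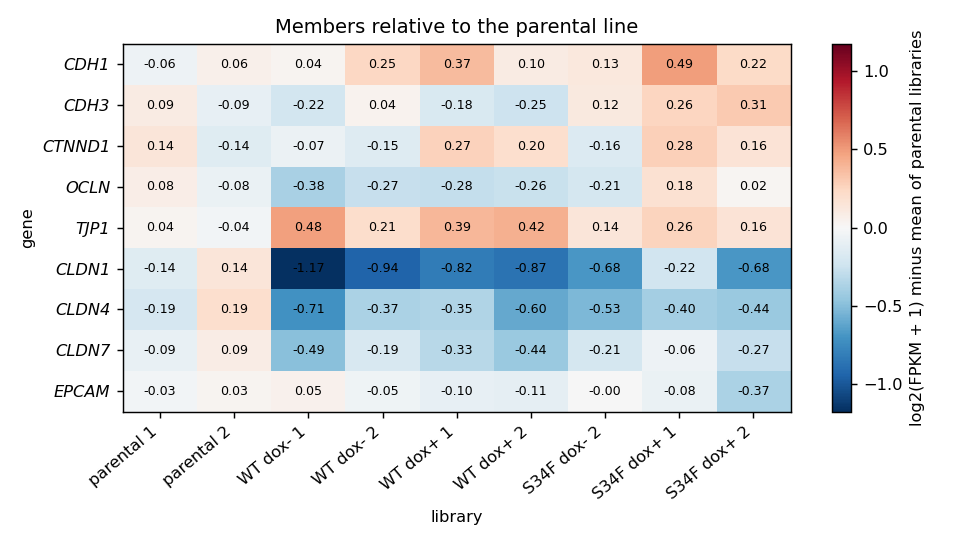
Log2(FPKM + 1) of 9 genes (rows) in the 9 libraries (columns), minus the mean of the parental libraries, with each value printed and coloured from blue (lower) to red (higher). CLDN1 and CLDN4 are below the parental values in all 7 transduced libraries, TJP1 is above them, and in OCLN the S34F dox+ libraries (0.18 and 0.02) lie apart from WT dox+ (-0.28 and -0.26).

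Of 57 other junction genes in the table, 40 were tested and 0 passed an adjusted p of 0.05 in S34F dox+ against WT dox+ by limma, while an unadjusted p of 0.05 was passed by 3 in the higher direction and 0 in the lower, beside 609 and 420 of the 15179 genes. Their log2 fold changes were positive for 30 and negative for 10, with a median of 0.13, beside 8376 positive, 6776 negative and a median of 0.03 over all genes (-0.07 in TPM), and 21 were higher without overlap against 20.5% of all genes, and 3 lower against 15.3%. By part of the junction, the positive values were 7 of 9 for adherens junctions, 4 of 6 for desmosomes, 16 of 20 for tight junctions and polarity proteins, 2 of 3 for EpCAM partners and 1 of 2 for other cadherins. In WT dox- against parental the tight junction and polarity genes were negative for 14 of 20, with a median of -0.22. Over all genes 7560 of 15179 were negative, with a median of 0 (0.09 in TPM). Negative values were 6 of 9 for adherens junctions, 5 of 6 for desmosomes, 3 of 3 for EpCAM partners and 1 of 2 for other cadherins. The medians of these lists were -0.02, -0.06, -0.56 and -0.04.

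Desmoplakin stood farthest from the rest. DSP, the plaque protein that ties desmosomes to keratin, was 19.3 and 21.9 FPKM in S34F dox+ and 4.63 and 5.40 in WT dox+. The log2 fold change was 1.84, with an unadjusted p of 3.49e-05 and an adjusted p of 0.0588 (limma), which passed only after quantile normalization, at 0.0487, and ranged up to 0.415 under the other alternatives. DSP was already 17.2 FPKM in S34F dox-, while the WT dox- libraries had 4.93 and 2.98 and the parental ones 4.23 and 4.13. All 3 libraries of the S34F line were therefore above all 6 others, with and without doxycycline. The label of the S34F dox- library puts S34F at 28% of U2AF1, below the 33% of both WT dox- libraries. Subclone and construct cannot be told apart here.

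JAM3, a junctional adhesion molecule of endothelial and other cells, was 3.72 and 5.80 FPKM in S34F dox+ and 2.95 and 2.03 in WT dox+ (log2 fold change 0.71, adjusted p = 0.731, limma), a value that was 0.45 without S34F dox+ replicate 2. It was 1.07 to 1.62 FPKM in the 5 uninduced libraries, so both induced lines were above them. At the other end, CDH11, a cadherin of mesenchymal cells, was 11.5 and 8.76 FPKM against 12.6 and 18.6 (log2 fold change -0.56, adjusted p = 0.796, limma), which came to -0.30 when WT dox+ replicate 2 was left out. It was between 15.4 and 33.8 FPKM in the uninduced libraries. CTNNB1, which encodes beta-catenin, was 123 and 97.6 FPKM against 127 and 128 (log2 fold change -0.22, adjusted p = 0.810, limma), a value that shrank to -0.05 without S34F dox+ replicate 2.

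**Figure D4:**
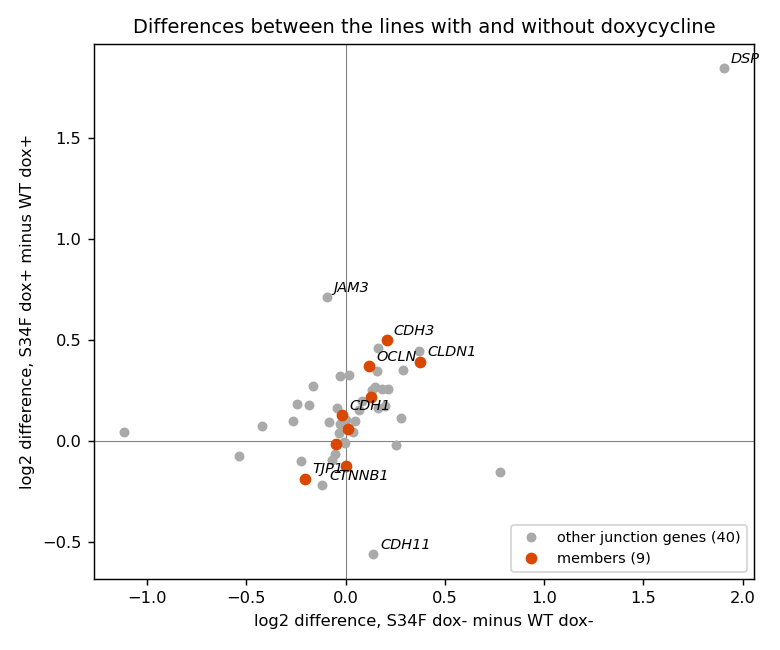
Difference between the S34F and WT lines on the log2(FPKM + 1) scale with doxycycline (y axis, 2 libraries a group) and without it (x axis, 1 S34F and 2 WT libraries) for 9 members (orange) and 40 other junction genes (grey). DSP stands apart at 1.91 without and 1.84 with doxycycline, and JAM3 lies at -0.10 without and 0.71 with it.

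Regulators of the epithelial state are given as levels. Among the repressors of CDH1, SNAI1 was 0.42 to 1.70 FPKM over the 9 libraries, SNAI2 0.32 to 1.39 and TWIST1 0 to 0.24. ZEB2 was 1.87 to 3.38 FPKM in the dox+ libraries, 0.19 to 0.76 in the dox- libraries, and 2.23 and 0.91 in the parental line. ZEB1 was 1.53 and 5.69 FPKM in S34F dox+, 3.37 and 3.03 in WT dox+ and 0.49 to 1.83 in the uninduced libraries, so the S34F dox+ replicates lay on either side of WT dox+. The epithelial factors were present throughout, ELF3 at 171 to 295 FPKM, GRHL2 at 15.3 to 24.2, OVOL2 at 9.0 to 13.1, KLF4 at 4.03 to 6.33 and OVOL1 at 3.22 to 5.30. The splicing regulators of epithelial exons were also present, ESRP1 at 41.3 to 55.0 FPKM, ESRP2 at 21.2 to 30.2, RBFOX2 at 53.6 to 71.4 and QKI at 69.5 to 94.4. Between S34F dox+ and WT dox+, the 12 of these genes that were tested included none at an adjusted or an unadjusted p under 0.05 by limma. ZEB2 and ELF3 were higher in WT dox+ than in WT dox- (unadjusted p = 0.0206 and 0.014, limma), against 14.4% of all genes under 0.05. Beside the parental line, WT dox- had lower ELF3 and higher ESRP2 (unadjusted p = 0.00521 and 0.0289, limma). The shares of all genes under 0.05 were 6.54% lower and 5.79% higher. The adjusted p-values of these differences were 0.215 to 0.343 (limma).

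The genes most like CDH1 across the 9 libraries, among 9969 genes averaging 5 FPKM or more, were FAM105B (Pearson r = 0.973), SNX13 (0.962) and SUMF2 (0.962). SUMF2, the nearest of them in level, ran from 49.1 FPKM in the first parental library to 68.7 in S34F dox+ replicate 1, which were also the lowest and highest libraries for CDH1. These points share libraries and scaling, and the correlations are descriptions picked as the highest of many.

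Splicing was compared by the study with MISO, which estimates PSI, taken here as the fraction of transcripts that use the first-listed form of an event, and a Bayes factor for a difference. The tables give 1 value for S34F and 1 for WT, without replicates, so there is no replicate check and no interval. Positions below are in the build of the tables, which the submitters' processing notes give as GRCh37 (hg19). Of 52 member events, 51 had at least 10 reads over both conditions. None reached a difference of 0.10 in PSI with a Bayes factor of 5, against 1.18% of the 87763 events of all genes. The median absolute difference was 0.02 for the members and 0.05 for all events, and 5 member events (9.8%) differed by at least 0.10 without a threshold on the Bayes factor, against 32.9%. The reads listed for member events had a median of 4803 in S34F and 6507 in WT, beside 223 and 320 for all events. These counts hardly changed between many events of a gene, such as 4803 to 4810 in S34F for 6 events of CDH1. How many of them decided between the forms of an event is not known. The largest Bayes factor of any member event was 2.43.

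**Figure D5:**
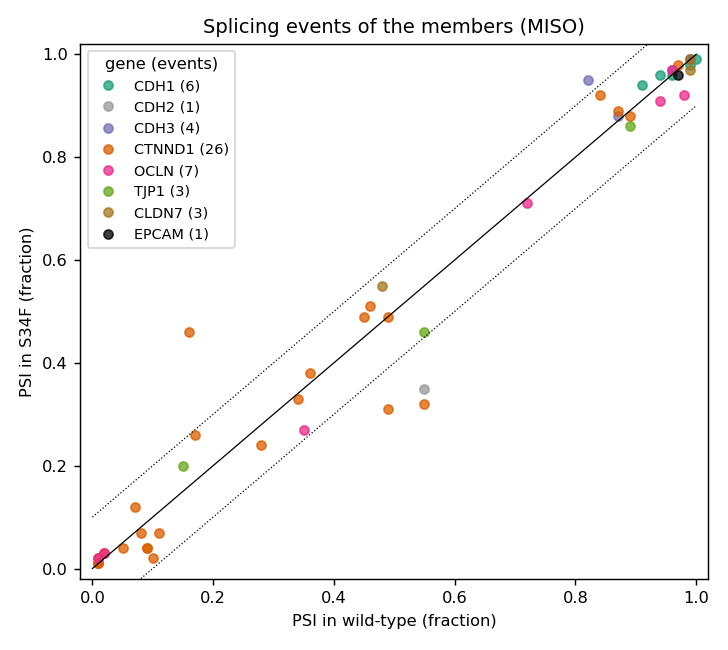
PSI (fraction) in S34F (y axis) against PSI in wild-type (x axis) for the 51 member events with at least 10 reads, coloured by gene, with the line of equality and dotted lines 0.10 either side. Most points lie at the ends of the diagonal, and the 5 outside the dotted lines belong to CTNND1 (3), CDH3 and CDH2.

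E-cadherin events differed by 0.03 or less in PSI. On chromosome 16, plus strand, 6 events of CDH1 had enough reads, with 4803 to 4810 reads in S34F and 6492 to 6507 in WT, and their PSI was 0.94 to 0.99 in S34F and 0.91 to 1.0 in WT. The largest difference was 0.03, at the exon that starts at 68847216 (0.94 against 0.91, Bayes factor 0.18). A further event under this symbol was on the opposite strand with 6 and 3 reads and is not described. CDH3, the neighbour of CDH1 on chromosome 16, had 4 events. Use of the exon that starts at 68679539 near the beginning of the gene was 0.95 in S34F and 0.82 in WT (Bayes factor 1.25), while its 3′ splice site choice between 68731996 and 68732094 was 0.88 and 0.87. The only event of CDH2, a NAGNAG choice, rested on 11 and 8 reads and gave 0.35 and 0.55.

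p120 catenin had the most listed events, 26 of the 52, and 12 of them had PSI between 0.10 and 0.90 in both conditions. Its alternative start codons and small cassette exons are known to give isoforms that differ between epithelial and mesenchymal cells. All lie on chromosome 11, plus strand, and share reads and exons, so they are not independent; 17 were also listed under RP11-691N7.6 and 16 under the read-through TMX2-CTNND1, both at 0.27 FPKM or less in every library. The exon that starts at 57561482 was used in 0.31 of transcripts in S34F and 0.49 in WT when spliced from 57559145 (Bayes factor 1.25), and in 0.92 and 0.84 when spliced from 57529518 (0.82). The values from these donors thus pointed in opposite directions. Neither reached the thresholds.

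A NAGNAG is a pair of 3′ splice sites 3 bases apart, and CTNND1 had 8 such events. The pair at 57569205 and 57569208 was listed with 4 donors. Use of the first site was 0.46 in S34F and 0.16 in WT from the donor at 57529518 (Bayes factor 1.04), 0.38 and 0.36 from 57529591, 0.51 and 0.46 from 57520879, and 0.01 and 0.01 from 57564464. The difference of 0.30 is the largest of any member event, but it belongs to 1 of 4 donors for the same pair, and its Bayes factor is near 1. The pair at 57583772 and 57583775 gave 0.32 and 0.55 from 57582972 (Bayes factor 1.45), the highest Bayes factor in CTNND1. The pair at 57583769 and 57583772 gave 0.26 and 0.17 from 57582972 and 0.33 and 0.34 from 57583473, and that at 57583387 and 57583390 gave 0.24 and 0.28.

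The remaining CTNND1 events with intermediate PSI barely differed. The 3′ splice sites at 57558857 and 57558966 were chosen at 0.89 and 0.87 from 57529518. The site at 57558964 had 0.49 and 0.45 in an event of 3 isoforms, and the donors before 57561482 gave 0.49 and 0.49. In the retained-intron event the first-listed form joins 57575764 to 57575862. Its values of 0.88 and 0.89 are therefore taken as shares of the form without the intron.

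In the tight junction genes, OCLN held the largest Bayes factor. On chromosome 5, plus strand, use of the exon that starts at 68804968 against joining 68800121 directly to 68830521 was 0.27 in S34F and 0.35 in WT (Bayes factor 2.43, 1519 and 1918 reads). The same exon against joining to 68809775 gave 0.92 and 0.98, and the exon that starts at 68809775 gave 0.71 and 0.72 from 68800121. The other 4 OCLN events differed by 0.03 or less. TJP1, on chromosome 15, minus strand, had the most reads, up to 10625 in S34F and 18478 in WT. Its skipped-exon event between 30012562, 30012220 and 30011342 gave 0.86 and 0.89, its NAGNAG at 30112877 and 30112874 gave 0.46 and 0.55, and its 5′ splice site event gave 0.20 and 0.15.

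CLDN7, on chromosome 17, minus strand, had a choice of 3′ splice site at 7165662 or 7165404, with 0.55 in S34F and 0.48 in WT (Bayes factor 0.31), and 2 events between 0.97 and 0.99. In the retained-intron event of EPCAM, on chromosome 2, the first-listed form joins 47600709 to 47600947. Its values of 0.96 and 0.97 are therefore taken as shares of the form without the intron. No event was listed for CLDN1 or CLDN4. Reads in S34F were fewer than in WT for most members, with median ratios from 0.579 for TJP1 to 0.878 for CDH3, beside 0.688 over all events, and CDH3 and OCLN (0.837) had the highest ratios among members with more than 1 event.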

How the data were processed

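RNA was measured in 9 libraries of HCC78-derived lines made with a stranded total RNA kit. Per the submitters' processing notes and the study's methods, the authors aligned reads with STAR (2.3.0) and computed gene values with RSEM (1.2.29) on GRCh37/hg19. The deposited table gives FPKM per gene and library, and TPM beside it, both scaled by the authors for transcript length and library size, and no read counts per gene. The authors also deposited MISO results of S34F against WT for 5 types of splicing event, with PSI as a fraction, the Bayes factor as a score and the supporting reads as counts. The side of each condition was read from the order in the tables' names. The ratio of reads between the sides rose with the FPKM ratio of S34F dox+ over WT dox+ across 10169 genes (Spearman rho 0.566, genes are not replicates), and less with that without doxycycline (0.157). The authors' own difference in PSI was not used.

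Values were taken as log2(FPKM + 1), a scale that understates changes of low genes, for the 15179 genes averaging 1 FPKM or more over the libraries. limma 3.58.1 (limma-trend, R 4.3.3) fitted 5 groups together without covariates, with two-sided tests and Benjamini-Hochberg adjustment over all genes tested. The fit was run on simulated data with planted changes larger than those of the members. It does not show whether changes as small as theirs would be found. Events needed a difference in PSI of 0.10, a Bayes factor of 5 and 10 reads over both conditions, and of several isoforms the one with the largest Bayes factor was used. The members and all gene lists were chosen with earlier results of these data known. The genes named are all members, all regulators, U2AF1, and junction genes past an adjusted p of 0.05 or, with none, the 2 highest and 2 lowest log2 fold changes without overlap between the dox+ groups; the 3 genes most like CDH1; and all events with intermediate PSI or the largest Bayes factor of a member. Promoter sequences are from RefSeq (GRCh38.p14). The binding libraries were not used here. Precision is limited by 2 libraries a group, and depth is unknown.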

Additional observations from a re-analysis of the deposited data

How the results depend on the processing

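The number of members past an adjusted p of 0.05 was 0 in each of the 4 comparisons and stayed 0 with a pseudocount of 0.1, no minimum, a minimum mean of 5 FPKM, quantile normalization, median-ratio scaling, TPM, a replicate block, the 4 dox+ libraries alone (S34F dox+ against WT dox+) and each library left out. The number of member events past the thresholds was also 0 with a Bayes factor of 20, a difference of 0.20, 10 reads in each condition and events of several isoforms left out. The replicate block left 0 members; the labels do not say that equal numbers pair libraries, and deviations of same-numbered libraries correlated between -0.076 and 0.037. Leaving out S34F dox- gives no doxycycline response of that line.

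Signs turned for some log2 fold changes that were at most 0.14 in size in the main fit, none of them called, and the cause was not tested. In S34F dox+ against WT dox+ CTNND1 was 0.012 after quantile normalization and CLDN4 -0.054 in TPM. In WT dox+ against WT dox- EPCAM was 0.0055 and CLDN7 0.040 after quantile normalization. In the difference of doxycycline responses TJP1 was -0.021 and CLDN1 -0.018 with median-ratio scaling, TJP1 -0.038 and CTNND1 -0.033 with the replicate block, and in TPM CDH1 was -0.0095, TJP1 -0.138, CLDN1 -0.126, CLDN4 -0.099, CLDN7 -0.063 and CTNND1 -0.116. In WT dox- against parental EPCAM was 0.013 after quantile normalization, 0.0052 with median-ratio scaling and 0.101 in TPM, and CDH3 was 0.013 in TPM.

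With each library left out, the members whose sign turned in S34F dox+ against WT dox+ were CDH1 (-0.0081 to 0.262), EPCAM (-0.269 to 0.024), CLDN4 (-0.066 to 0.186) and CTNND1 (-0.069 to 0.043). In WT dox+ against WT dox- they were CDH1 (-0.043 to 0.226), CDH3 (-0.257 to 0.0050), OCLN (-0.0032 to 0.111), TJP1 (-0.077 to 0.196), CLDN4 (-0.110 to 0.232) and CLDN7 (-0.192 to 0.103). In the difference of responses they were EPCAM (-0.269 to 0.024), TJP1 (-0.122 to 0.151), CLDN1 (-0.213 to 0.244), CLDN4 (-0.122 to 0.220), CLDN7 (-0.059 to 0.236) and CTNND1 (-0.020 to 0.092). In WT dox- against parental they were CDH3 (-0.219 to 0.043), EPCAM (-0.049 to 0.046) and CTNND1 (-0.249 to 0.035).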
